A study of Mus musculus with 6 samples.

Results

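The genes described here are 9 that make, move, bind, degrade or sense retinoids, the vitamin A derivatives: the carrier and uptake genes Rbp4 and Stra6, the retinal dehydrogenase genes Aldh1a1, Aldh1a2 and Aldh1a3, the binding protein genes Crabp1 and Crabp2, the hydroxylase gene Cyp26b1 and the receptor gene Rarb. They were chosen by symbol from the 55536 genes of the count tables, with their difference between the sorted groups already known, so their differences are given as a description and without a test. All 9 were found and passed the filter on low counts.

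RNA-seq was done on stromal cells of injured mouse quadriceps that had been sorted as CD45-, CD31- and CD29+. The reporter-positive group (p16+, 3 libraries) carried the tdTomato signal of a p16 reporter on the C57Bl/6 background, and the reporter-negative group (p16-, 3 libraries) came from the same reporter strain without that signal. According to the labels' protocols, quadriceps muscle was removed at 10 weeks of age, the gap was filled with 30 mg of polycaprolactone, decellularized matrix or 50 uL of saline, and tissue was taken after 1 or 6 weeks. The series is described as a foreign body fibrosis model, but the filler, the harvest time, the number of animals and any pooling are not given for these libraries in the sources used here. Any difference in these between p16+ and p16- cannot be told apart from that of the reporter, and the p-values speak only of the variation among these 6 libraries, which may be technical.

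Retinol travels in blood bound to RBP4 and enters cells through STRA6. Dehydrogenases of the RDH and ADH families convert it to retinal, and the ALDH1A enzymes convert retinal irreversibly to retinoic acid. CRABP proteins bind retinoic acid in the cytosol, CYP26 enzymes degrade it, and the receptors RAR and RXR bind DNA as a pair and switch their targets on when retinoic acid is present. In connective tissue retinoids are known to influence the differentiation of fibroblasts and fat cells.

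Receptors of the RAR type bind best to direct repeats of a short element, and the best known of these lies in the Rarb promoter. The search took the 6-base element AGGTCA, its variant spelled GGGTCA, and likewise the spellings AGTTCA or else GGTTCA, on both strands, as direct repeats 1, 2 or 5 bases apart. It covered windows from 250 bases before to 50 bases after each start site (RefSeq, GRCm38.p6), which were given for 7 of the 9 genes. A repeat 5 bases apart stood in 0.0974% of the 32851 windows of all genes. Among the 9 genes it stood in Rarb, and among the further retinoid genes in Cyp26a1, a strongly retinoid-responsive gene of the degradation step. No repeat 1 or 2 bases apart was found in a window of the 9 genes or overlapped the matches, and other motifs were not searched. The matches are shown in capitals with 20 bases on each side, since the levels of both genes are described further on.
Rarb (chr14:16575493-16575549, minus strand): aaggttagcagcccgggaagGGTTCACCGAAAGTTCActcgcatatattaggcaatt
Cyp26a1 (chr19:37697756-37697812, plus strand): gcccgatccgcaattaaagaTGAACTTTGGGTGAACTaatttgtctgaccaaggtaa
Counted from 0 at the start site, the match covered positions -53 to -37 in Rarb, and -32 to -16 in Cyp26a1, where it lay on the opposite strand.

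In short, p16+ libraries held more Stra6 and Crabp2 transcript and less Aldh1a1, Aldh1a3 and Rbp4 transcript than p16- libraries, while the values of Aldh1a2, Crabp1, Cyp26b1 and Rarb overlapped between the groups. Values are CPM, counts divided by library size after correction with TMM factors. Adjusted p-values are from edgeR's quasi-likelihood test over 15903 genes, with a threshold of 0.05. In that fit 2 of the 9 genes lay past the threshold in the higher and 2 in the lower direction. Over all genes tested 16.7% did so, 8.69% higher and 8.04% lower. In 5 of the 9 the CPM of the groups did not overlap, as in 33.1% of all genes tested. Since the 9 genes were chosen on this contrast, nothing is read from these shares.

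**Figure D1:**
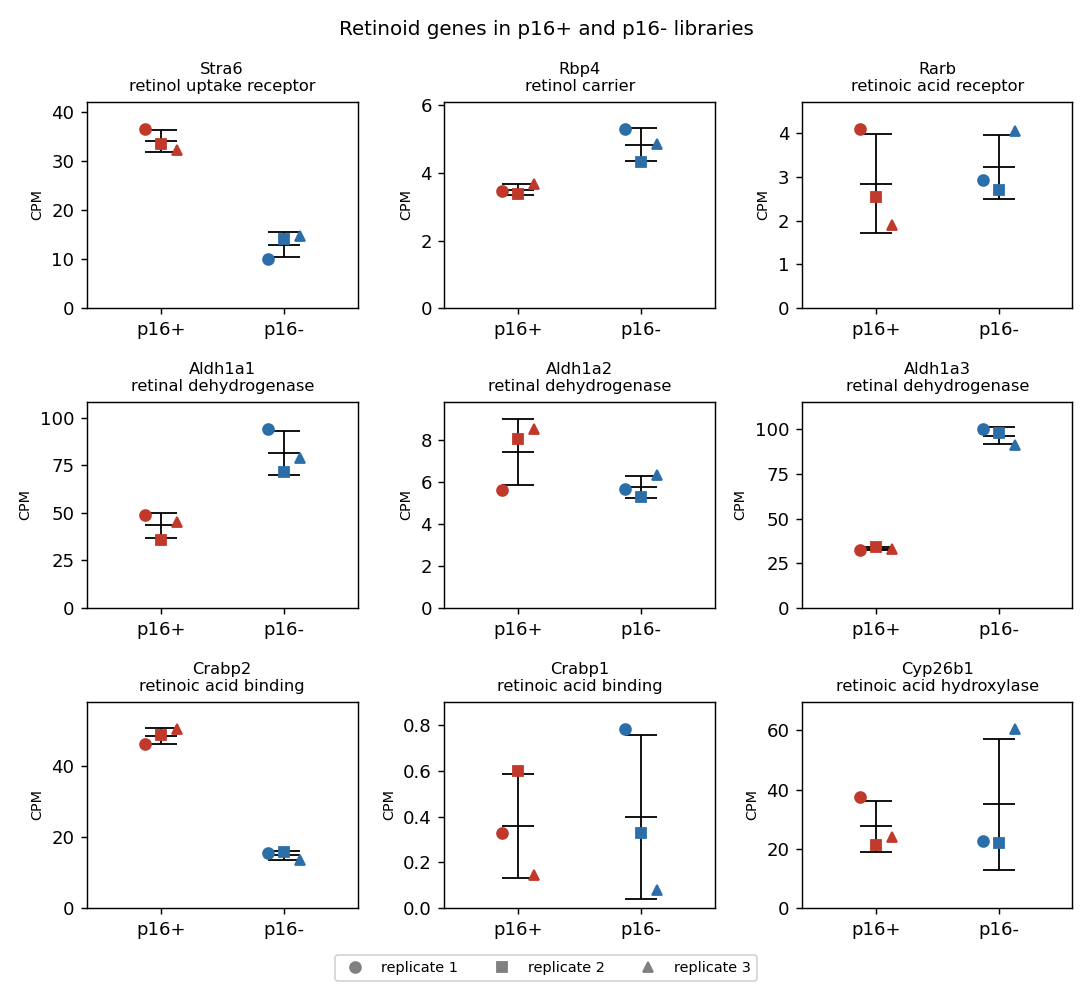
CPM of the 9 retinoid genes in the 3 p16+ and 3 p16- libraries, 1 point per library, with the mean and SD as bars. The groups are separate for Stra6, Rbp4, Aldh1a1, Aldh1a3 and Crabp2, and in Cyp26b1 the point at 60.6 CPM is p16- replicate 3.

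The p16+ libraries held 35253406 to 37861713 counts, and the p16- libraries 36507067 to 39103909. Cdkn2a, which encodes p16, had 7.82 ± 0.96 CPM in p16+ cells and 2.12 ± 0.329 CPM in p16- cells (SD, n = 3 each). Of the gate genes, Itgb1 (CD29) had 891 CPM in p16+ cells and 757 in p16- cells (adjusted p = 0.0543), Ptprc (CD45) 7.76 in p16+ cells and 4.88 in p16- cells (adjusted p = 0.0602), and Pecam1 (CD31) 6.73 in p16+ cells and 3.34 in p16- cells (adjusted p = 0.00871, lost without p16+ replicate 3 at 0.0621). Itgb1 and Ptprc passed under other settings, with DESeq2 (adjusted p = 0.00955 for Itgb1 and 0.0381 for Ptprc), without a filter on low counts (0.0434 and 0.018), with the stricter filter (0.0452 and 0.0487) and without p16- replicate 2 (0.0469 and 0.0371). Itgb1 also passed with limma-voom (0.0336) and Ptprc without p16+ replicate 3 (0.0172). The summed CPM of 7 stromal markers was 50638 to 52001 in p16+ cells and 32278 to 35719 in p16-, chiefly from Col1a1. That of 12 macrophage and dendritic cell markers was 274 to 315 in p16+ cells and 194 to 219 in p16-, and that of 7 pericyte and smooth muscle markers 1857 to 1921 in p16+ cells and 1238 to 1582 in p16-. Endothelial markers summed to 65.1 to 92.2 in p16+ cells and 173 to 203 in p16-, mostly from Tek, which fell to 49.1 CPM in p16+ cells, against 168 in p16- (adjusted p = 5.25e-08). Of the other 6 members Pecam1 and Emcn were called in the opposite direction, Emcn with 5.63 CPM in p16+ cells and 2.63 in p16- (adjusted p = 0.00683), and Cdh5, Kdr, Cldn5 and Egfl7 did not pass. Glial and perineurial markers summed to 75.4 to 94.3 in p16+ cells and 82.5 to 129 in p16-. Adipocyte markers summed to 18.8 to 36.6 in p16+ cells and 13.6 to 51.6 in p16-. Nearly all of this was Fabp4, with 28.8 CPM in p16+ cells and 29.4 in p16- (adjusted p = 0.983 by edgeR). Adipoq had 0.210 in p16+ cells and 1.18 in p16-, with overlapping groups, and did not pass (adjusted p = 0.0776). Mesothelial markers summed to 3.95 to 6.46 in p16+ cells and 20.2 to 20.4 in p16-, mostly from Krt19. Krt19 had 4.05 CPM in p16+ cells and 19.9 in p16- (adjusted p = 2.92e-07 by edgeR). Wt1 went the other way, with 0.718 in p16+ cells and 0.204 in p16-, and did not pass (adjusted p = 0.1 by edgeR). The other 5 members did not pass the filter on low counts. Among them Krt18 had 4, 2 and 12 counts in p16+ libraries and 0 in p16-, and Upk3b and Lrrn4 were at 0 in all 6 libraries. Tendon markers summed to 2820 to 3684 in p16+ cells and 1862 to 2067 in p16-. Most of this came from Thbs4, with 2635 CPM in p16+ cells and 1413 in p16-. Thbs4, Fmod and Mkx were called higher in p16+ cells, and Scx and Tnmd did not pass (adjusted p = 0.674 and 0.31 by edgeR). Satellite cell markers summed to 21.5 to 28.9 in p16+ cells and 13.9 to 24.4 in p16-, and muscle fibre markers to 14.3 to 26.1 in p16+ cells and 14.2 to 21.7 in p16-. Epithelial markers summed to 0.0875 to 0.354 in p16+ cells and 0.605 to 1.4985 in p16-, with Krt15 at 0. The part of these cell types in the retinoid differences was not tested.

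The uptake step was unlike in its carrier and its receptor. Stra6 (ENSMUSG00000032327.14, chromosome 9, 58063788 to 58153996, GRCm38), which encodes the membrane receptor that takes retinol from RBP4, had 36.6, 33.5 and 32.2 CPM in p16+ replicates 1 to 3, against 9.95, 14.1 and 14.6 CPM in p16- replicates 1 to 3. The lowest p16+ library was above the highest p16- library. This was a log2 fold change, p16+ over p16-, of 1.40 (SE 0.14), or 2.64-fold. Rbp4 (ENSMUSG00000024990.13, chromosome 19, 38116629 to 38125281), which encodes the carrier of retinol in blood, had 3.46, 3.37 and 3.68 CPM in p16+ cells and 5.31, 4.33 and 4.86 CPM in p16-. Its groups did not overlap either, but the log2 fold change was -0.46 (SE 0.22), and it was not among the genes past the threshold. Per length, the ratio of Stra6 to Rbp4 in TPM, counts scaled to exon length and to library size, was 2.25 ± 0.213 in p16+ cells and 0.626 ± 0.17 in p16- cells (SD, n = 3 each).

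The 3 genes of the last step of synthesis, the oxidation of retinal to retinoic acid, differed from each other. Aldh1a3 (ENSMUSG00000015134.15, chromosome 7, 66390890 to 66427517) had 32.5, 34.0 and 33.3 CPM in p16+ cells and 100.4, 97.8 and 91.2 CPM in p16-. The p16- libraries all lay far above the p16+ libraries, and the coefficient of variation within a group was 2.36% in p16+ cells and 4.95% in p16-. The log2 fold change was -1.54 (SE 0.08), that is 2.90-fold lower in p16+. Aldh1a1 (ENSMUSG00000053279.8, chromosome 19, 20492715 to 20643465) had 48.9, 35.9 and 45.4 CPM in p16+ cells and 94.2, 71.5 and 78.8 CPM in p16-. It was lower in each p16+ library than in any p16- library, by 1.88-fold (log2 fold change -0.91, SE 0.12). Aldh1a2 (ENSMUSG00000013584.5, chromosome 9, 71215789 to 71296243), which makes most retinoic acid in the early embryo, had 5.61, 8.05 and 8.52 CPM in p16+ cells and 5.65, 5.27 and 6.34 CPM in p16-. Here p16+ replicate 1 lay inside the range of the p16- libraries and the other two p16+ libraries above it, with a log2 fold change of 0.36 (SE 0.20).

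Scaled by length, the 3 ALDH1A genes together gave 75.8 ± 3.77 TPM in p16+ cells and 157 ± 6.99 TPM in p16- cells (SD, n = 3 each). Aldh1a3 held 36.2%, 40.5% and 35.7% of this sum in p16+ libraries, against 50.2%, 55.8% and 51.3% in p16- libraries. The share of Aldh1a2 was 12.8%, 19.5% and 18.7% in p16+, against 5.76%, 6.12% and 7.27% in p16-. Aldh1a1 took 51.0%, 39.98% and 45.6% in p16+ cells and 44.1%, 38.1% and 41.4% in p16-, with overlapping groups. Aldh1a3 was thus the main contributor in each p16- library, and Aldh1a1 and Aldh1a3 were close to each other in p16+ replicate 2. In bulk samples, fewer cells that use a gene and less RNA of it per cell cannot be told apart.

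**Figure D2:**
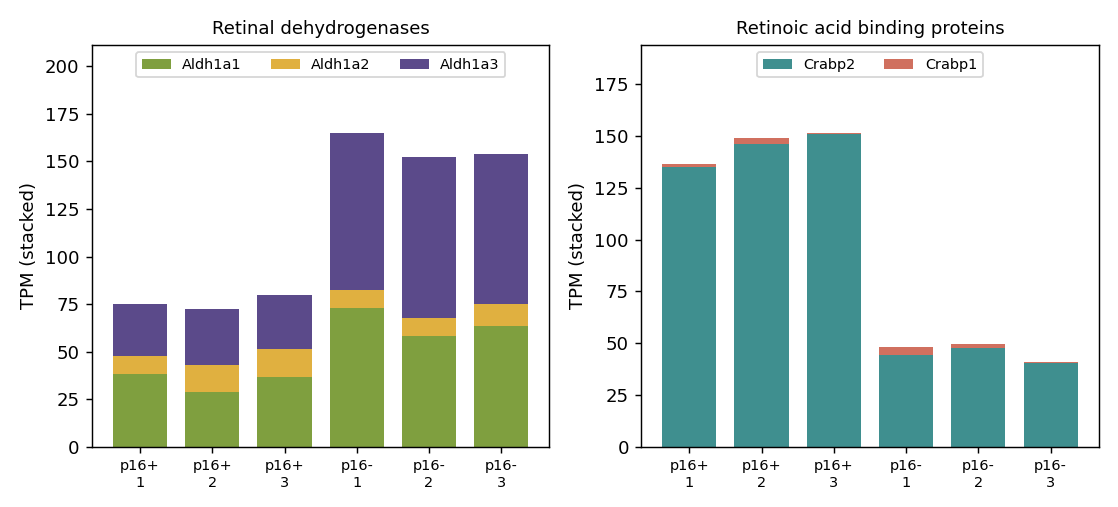
TPM of the retinal dehydrogenase genes (left) and the retinoic acid binding protein genes (right), stacked per library, with p16+ libraries left of p16- libraries. The dehydrogenase sum is 72.4 to 79.8 TPM in p16+ cells and 152 to 165 TPM in p16-, and the binding protein sum is 137 to 152 TPM in p16+ cells and 41.0 to 49.4 TPM in p16-.

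Close copies could blur these counts. The coding sequence of Aldh1a1 is 91.6% identical to that of Aldh1a7, a copy found in rodents next to it on chromosome 19. By contrast it is 68.8% identical to Aldh1a2 and 67.4% to Aldh1a3, and Crabp1 and Crabp2 are 70.8% identical over 411 aligned bases. The first 60 coding bases of each pair (GENCODE vM21 transcripts) are shown with the differing bases in capitals, 22 between the CRABP genes and 3 between Aldh1a1 and Aldh1a7.
Crabp2: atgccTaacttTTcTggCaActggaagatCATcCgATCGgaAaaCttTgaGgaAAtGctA
Crabp1: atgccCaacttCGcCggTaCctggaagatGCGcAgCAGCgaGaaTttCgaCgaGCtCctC
Aldh1a1: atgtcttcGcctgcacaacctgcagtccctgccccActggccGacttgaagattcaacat
Aldh1a7: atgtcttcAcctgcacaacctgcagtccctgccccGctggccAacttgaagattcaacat
Of the 50-base stretches of Aldh1a1 transcripts, 50 bases being the length of a read, 3.1% also occurred in Aldh1a7, and 0.0% of those of Crabp1 and Crabp2 occurred in another gene. Aldh1a7 was counted 31, 2 and 6 times in p16+ libraries and 0, 2 and 15 times in p16- libraries. Aldh1a1 was counted 1779, 1321 and 1557 times in p16+ libraries and 3836, 2837 and 2933 times in p16- libraries.

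Among the binding proteins, Crabp2 (ENSMUSG00000004885.5, chromosome 3, 87948666 to 87953376), whose protein carries retinoic acid to its receptors in the nucleus, had 46.1, 48.6 and 50.4 CPM in p16+ cells and 15.4, 15.8 and 13.5 CPM in p16-. The groups were far apart and each was tight, with a log2 fold change of 1.70 (SE 0.10), or 3.25-fold, the largest of the 9. It ranked 143rd from the top among the 15903 genes tested by fold, and Stra6 ranked 297th. At the other end, Aldh1a3 ranked 300th from the bottom and Aldh1a1 854th. Crabp1 (ENSMUSG00000032291.8, chromosome 9, 54764748 to 54773110), a relative tied to turnover of retinoic acid, was near the limit of detection, with 12, 22 and 5 counts in p16+ cells and 32, 13 and 3 counts in p16-. The range of the p16- libraries, 0.0806 to 0.786 CPM, held all p16+ values, which ran from 0.146 to 0.599 CPM (log2 fold change -0.15, SE 0.87). Crabp2 made up 98.0% to 99.5% of the CRABP sum in p16+ cells and 92.2% to 99.0% in p16-.

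In the degradation step, Cyp26b1 (ENSMUSG00000063415.12, chromosome 6, 84571414 to 84593908), which encodes a hydroxylase that inactivates retinoic acid, had 37.4, 21.3 and 24.0 CPM in p16+ cells and 22.8, 21.8 and 60.6 CPM in p16-. A single library, p16- replicate 3, stood above the other 5, and the log2 fold change of -0.34 had an SE of 0.54. Without that library the log2 fold change was 0.31. Cyp26b1 made up 90.1% to 92.9% of the TPM of the CYP26 genes in p16+ cells and 91.7% to 98.7% in p16-. Cyp26a1, whose promoter match is shown above, had 0.557 ± 0.0841 CPM in p16+ cells and 0.330 ± 0.0781 CPM in p16- cells (adjusted p = 0.527).

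The receptor gene Rarb (ENSMUSG00000017491.9, chromosome 14, 16430839 to 16819156), whose promoter match is shown above and which is itself known to be induced by retinoic acid, had 4.10, 2.53 and 1.90 CPM in p16+ cells and 2.92, 2.697 and 4.06 CPM in p16-. The groups overlapped fully (log2 fold change -0.18, SE 0.32). Of its exonic length 38.4% is overlapped by genes on the opposite strand, chiefly Top2b, and the counting left out fragments that lay in such an overlap. TPM divides by the full exonic length, so the TPM of Rarb and its share of the RAR genes, given without correction, are too low by those fragments. Top2b itself, a DNA topoisomerase gene, had 121 CPM in p16+ cells and 133 in p16- cells (adjusted p = 0.246). Without p16+ replicate 3 the log2 fold change was 0.04, without p16- replicate 3 it was 0.02, and without p16+ replicate 1 it was -0.54. Within the RAR genes Rarb took 1.23% to 2.17% of the TPM in p16+ cells and 1.65% to 2.04% in p16-, and Rarg was the main form at 74.4% to 77.0% in p16+ cells and 76.4% to 77.6% in p16-.

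**Figure D3:**
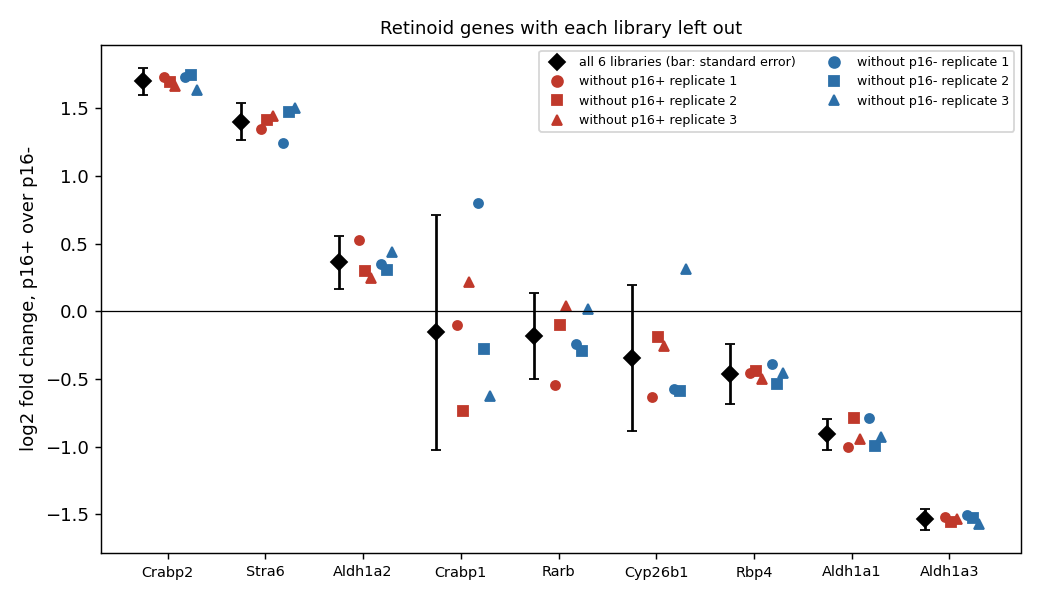
Log2 fold change, p16+ over p16-, of the 9 retinoid genes with all 6 libraries (diamonds, bars show the SE) and with each library left out. Crabp2, Stra6, Aldh1a2, Rbp4, Aldh1a1 and Aldh1a3 keep their sign in all 6 cases, and Crabp1, Rarb and Cyp26b1 do not.

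Levels can be compared between genes only per length. In p16+ libraries Crabp2 had the highest mean at 144 TPM, followed by Aldh1a1 at 34.6, Aldh1a3 at 28.4, Stra6 at 23.0, Cyp26b1 at 20.2, Aldh1a2 at 12.9, Rbp4 at 10.3, Rarb at 2.12 (not corrected for the overlap) and Crabp1 at 1.76 TPM. The values of single libraries overlapped between Aldh1a1 and Aldh1a3, between Stra6 and Cyp26b1, between Aldh1a2 and Rbp4, and between Rarb and Crabp1. In p16- libraries the order began with Aldh1a3 at 82.2 TPM, Aldh1a1 at 64.8 and Crabp2 at 44.3, followed by Cyp26b1 at 25.9, Rbp4 at 14.2, Aldh1a2 at 10.0, Stra6 at 8.75, Rarb at 2.42 (likewise not corrected) and Crabp1 at 1.93 TPM. There the neighbours Crabp2 and Cyp26b1, Aldh1a2 and Stra6, and Rarb and Crabp1 overlapped. The most abundant of the 9 was therefore Crabp2 in every p16+ library and Aldh1a3 in every p16- library.

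Other genes with a like profile over the 6 libraries were found by the root mean square difference of log2 CPM, each gene centred on its mean, among 10763 well-measured genes. For Crabp2 they were Tnfrsf26, a member of the TNF receptor family (difference 0.07), and Ccn5, a matricellular gene (0.13). For Aldh1a3 they were Cmah, an enzyme gene of sialic acid synthesis (0.06), and Tubb4a, a tubulin gene (0.09). For Stra6 they were Cacna1c, a calcium channel gene (0.12), and Gjb5, a connexin gene (0.14). Tnfrsf26 had 11.5 CPM in p16+ cells and 3.65 in p16-, and Cmah had 48.6 in p16+ cells and 134 in p16-. For members of large fold this measure favours genes of a like fold between the groups. The log2 fold change was 1.66 for Tnfrsf26 and -1.46 for Cmah, near those of Crabp2 and Aldh1a3. A common regulation was not tested.

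The other genes of the pathway were not used to choose the 9. Their lists were written with earlier results of these data known, so nothing is read from their share of calls. Of 70 listed, 54 passed the filter, and of these 6 rose and 13 fell in p16+ cells (adjusted p under the threshold by edgeR), or 35.2%, where 16.7% of all genes tested were called. The median log2 fold change of the 54 was -0.08 and that of all genes tested was -0.01. Without p16- replicate 3 only 3 rose and 11 fell. Of the 19 calls, 13 held with each library left out and under each other setting tried, and the other 6 are marked where they are named.

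In uptake and storage, 1 of 10 tested genes rose, 2 fell and 7 did not pass. Lpl, which encodes the lipoprotein lipase that also frees retinyl esters for uptake, fell to 757 ± 68.6 CPM in p16+, against 1091 ± 219 CPM in p16- cells (adjusted p = 0.00618 by edgeR). The scavenger receptor gene Cd36 had 38.3 CPM in p16+ cells and 55.5 in p16- cells (adjusted p = 0.0345). The Lpl call was lost without p16- replicate 1 (adjusted p = 0.0989), and that of Cd36 in 4 of the 6 cases with a library left out (up to 0.158). The most abundant gene of the list, Lrp1, which encodes a lipoprotein receptor, had 2728 CPM in p16+ cells and 2734 in p16- cells (adjusted p = 0.99).

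Of 14 tested oxidoreductase genes, 1 rose, 4 fell and 9 did not pass. Adh1, which encodes an alcohol dehydrogenase that oxidizes retinol, had 33.3, 23.5 and 30.9 CPM in p16+ cells and 111.5, 59.2 and 90.5 CPM in p16-. The lowest p16- library was above the highest p16+ library (log2 fold change -1.58 with an SE of 0.24, adjusted p = 0.00365 by edgeR). Aox1, an aldehyde oxidase gene whose enzyme can act on retinal, had 19.2 ± 2.61 CPM in p16+ cells and 42.9 ± 4.64 CPM in p16- cells (adjusted p = 4.32e-06 by edgeR, SD over 3 libraries each). Adh7, another alcohol dehydrogenase gene active on retinol, fell to 12.2 CPM in p16+, against 18.8 in p16- cells (adjusted p = 0.00509), and Dhrs7, a short-chain dehydrogenase gene, to 47.5 CPM in p16+, against 63.2 in p16- cells (adjusted p = 0.00698). Rdh10, the main retinol dehydrogenase of the embryo, went the other way, with 44.8 CPM in p16+ cells and 33.9 in p16- cells (adjusted p = 0.0119), a call lost in 3 of the 6 cases with a library left out. The partner enzyme gene Dhrs3, which turns retinal back to retinol, had 59.5 ± 14.1 CPM in p16+ cells and 49.9 ± 10.2 CPM in p16- cells (adjusted p = 0.392 by edgeR, SD, n = 3 each).

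In binding and degradation, Fabp5, which encodes a fatty acid binding protein that also binds retinoic acid, had 12.4, 14.7 and 10.2 CPM in p16+ cells and 9.06, 8.24 and 5.64 CPM in p16- cells (log2 fold change 0.70 with an SE of 0.19, adjusted p = 0.0177 by edgeR). The call was lost without p16+ replicate 2 (adjusted p = 0.104) and without p16- replicate 3 (adjusted p = 0.0906). CRABP2 and FABP5 are known to hand retinoic acid to different receptors. The ratio of Crabp2 to Fabp5 TPM was 10.7 ± 2.27 in p16+ cells and 5.39 ± 0.952 in p16- cells (SD, n = 3 each). Its size rests on the exonic lengths used, 1322 bases in 4 blocks for Crabp2 and 3567 in 2 blocks for Fabp5. Which transcripts the cells use was not tested. Without scaling by length, Crabp2 had 48.4 CPM and Fabp5 12.4 in p16+ cells, and 14.9 and 7.65 in p16- cells. Por, which encodes the reductase that feeds electrons to CYP26 and other P450 enzymes, fell to 59.0 CPM in p16+, against 80.3 in p16- cells (adjusted p = 0.0049).

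Few of the receptor and coregulator genes passed the test. By edgeR 0 of 6 receptor genes passed, with 2 at an unadjusted p under 0.05. By limma-voom the count past the adjusted threshold was 0, and by DESeq2 it was 1. The most abundant, Rarg, had 103 ± 12.99 CPM in p16+ cells and 110 ± 13.3 CPM in p16- cells (adjusted p = 0.628), a log2 fold change of -0.09 that became 0.02 without p16- replicate 3. Rara had 32.2 CPM in p16+ cells and 30.5 in p16-, Rxra 81.1 in p16+ cells and 78.8 in p16-, and Rxrb 40.6 in p16+ cells and 37.2 in p16-. Rxrg, the scarce RXR form, had 2.31, 2.72 and 2.71 CPM in p16+ cells and 5.92, 3.50 and 4.11 CPM in p16-, and missed the threshold at an adjusted p of 0.0501, which ran between 0.0289 with DESeq2 and 0.256 without p16- replicate 1. Of 8 coregulator genes Ncoa1, a coactivator gene, fell to 44.5 CPM in p16+, against 65.9 in p16- cells (adjusted p = 0.000358), and 7 did not pass.

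Of 16 tested genes known from other tissues to respond to retinoic acid, 3 rose, 5 fell and 8 did not pass. Tgm2, the transglutaminase 2 gene, had 182, 193 and 182 CPM in p16+ cells and 83.3, 104 and 104 CPM in p16- cells (log2 fold change 0.94 with an SE of 0.09, adjusted p = 2.75e-06 by edgeR). Nr2f2, which encodes the nuclear receptor COUP-TFII, rose to 59.1 CPM in p16+, against 42.3 in p16- cells (adjusted p = 0.00082). Rarres1, named for its response to retinoids, had 4.21 CPM in p16+ cells and 1.96 in p16- cells (adjusted p = 0.0125, lost without p16+ replicate 1 and without p16- replicate 3, at 0.0606 and 0.0608).

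Rarres2, which encodes the adipokine chemerin, went the opposite way to Rarres1, with 142, 114 and 140 CPM in p16+ cells and 289, 213 and 229 CPM in p16- cells (log2 fold change -0.88 with an SE of 0.11, adjusted p = 4.0e-05 by edgeR). The largest fall of the 54 was that of Zbtb16, a transcription factor gene known as a fusion partner of RARA in leukaemia, with 4.34, 4.05 and 4.29 CPM in p16+ cells and 20.5, 18.2 and 15.1 CPM in p16- cells (log2 fold change -2.08 with an SE of 0.16, adjusted p = 2.82e-07 by edgeR). Tbx5, a forelimb and heart transcription factor gene, had 7.77 CPM in p16+ cells and 16.5 in p16- cells (adjusted p = 0.000246). The receptor tyrosine kinase gene Ret had 33.9 in p16+ cells and 59.4 in p16- cells (adjusted p = 0.00322). Meis1, a homeobox gene, had 16.3 in p16+ cells and 21.2 in p16- cells (adjusted p = 0.0358), a call lost in 4 of the 6 cases with a library left out. Genes on the opposite strand overlap 33.6% of the exonic length of Rarres2 and 21.8% of that of Tgm2, and other genes overlap 18.3% of that of Meis1.

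**Figure D4:**
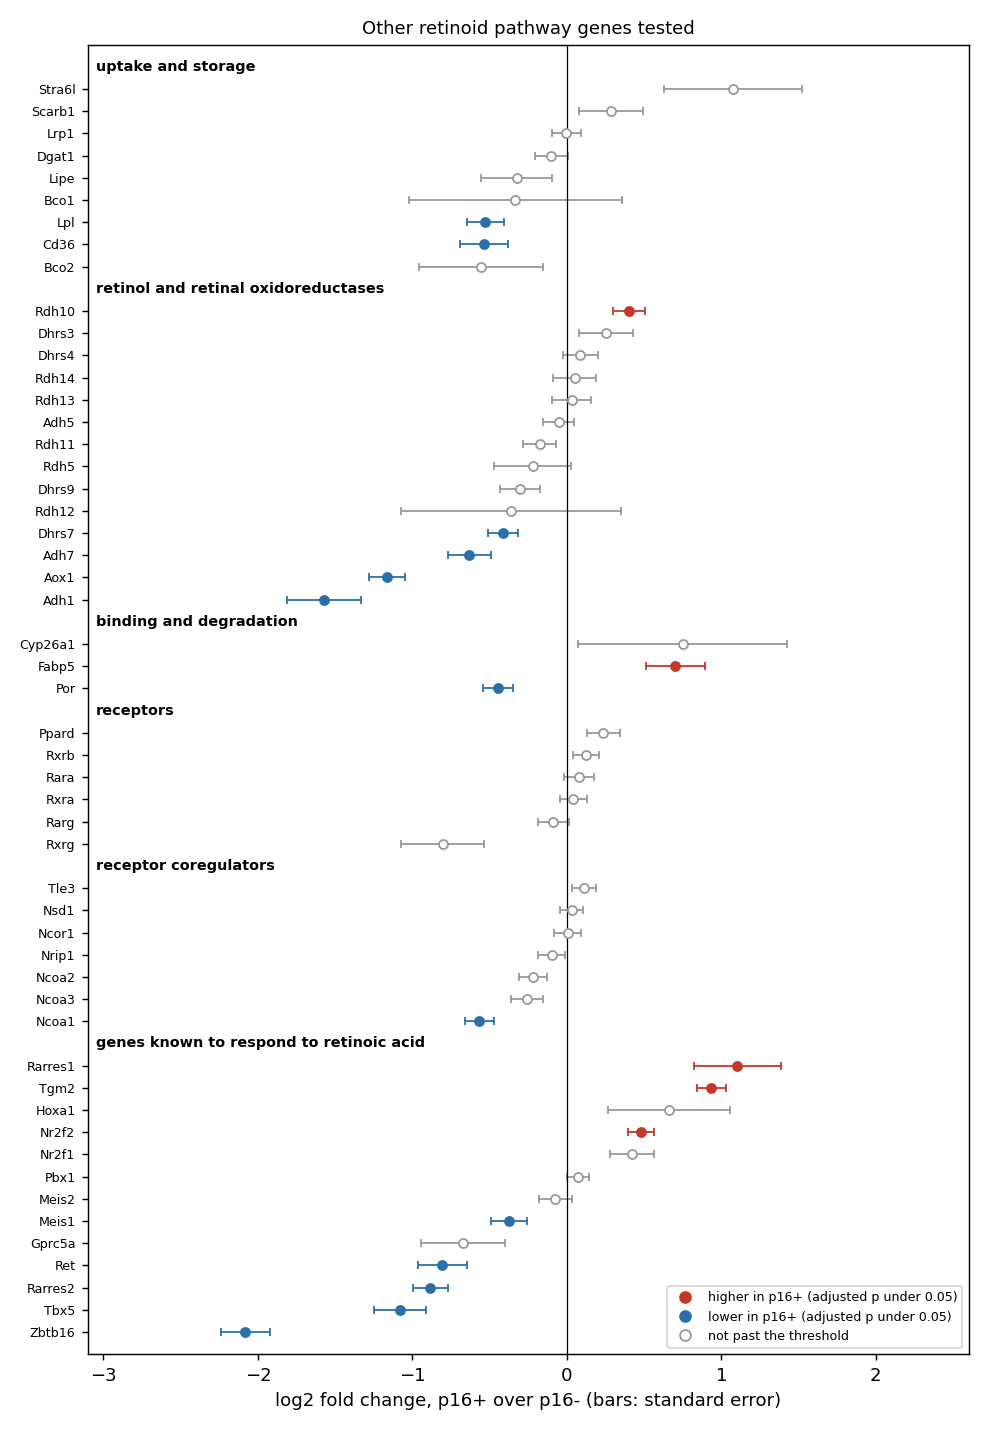
Log2 fold change, p16+ over p16-, with its SE, of 52 of the 54 further retinoid pathway genes tested, by list (a gene of 2 lists is drawn in the first). Filled points passed the adjusted threshold, red where higher and blue where lower in p16+, from Zbtb16 at -2.08 to Rarres1 at 1.10.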

How the data were processed

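Each deposited file gives counts per gene, which the authors obtained by running featureCounts 1.6.0 in fragment mode over GENCODE vM21 exons, per the file headers. The recorded command sets nothing for strand, for overlapping features or for multiple alignments, so a fragment in the exons of more than 1 gene was dropped by default. The kit does not mark strand, per the labels' protocols. The submitters' processing notes name bcl2fastq, STAR 2.7.3a and the build GRCm38.p6. All 55536 identifiers and gene positions matched vM21, which gave the symbols. The exon length column was deposited as another per-gene value and was used for TPM.

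Genes were filtered with filterByExpr, leaving 15903. The robust quasi-likelihood test, TMM factors and CPM came from edgeR 4.0.16 (R 4.3.3), with group as the only term and Benjamini-Hochberg adjustment over all genes tested. Log2 CPM used a prior count of 2. DESeq2 1.42.0 and limma 3.58.1 were alternatives, with other factors, filters, the replicate number as a block, and each library left out. The test was tested on simulated data. A count of 3 corresponded to 0.0767 to 0.0851 CPM.

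The members, the lists of pathway genes and markers and the tests were chosen with earlier results of these data known. Named genes were the 9 members, pathway genes past the threshold, the most abundant gene of each list where it did not pass, Aldh1a7, the gate genes, defining markers of other cell types, and the 2 genes nearest in profile to the 3 members of largest fold. Cyp26a1, Dhrs3, Rara, Rxra, Rxrb, Rxrg and Top2b were named outside that rule, after their values were seen. The values of 2 genes of the pathway lists are not reported here, though both are in the counts.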

Additional observations from a re-analysis of the deposited data

How the results depend on the processing

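Of the 9 genes, Crabp2, Stra6, Aldh1a2, Rbp4, Aldh1a1 and Aldh1a3 kept their sign in all 14 alternatives, with log2 fold changes of 1.63 to 1.75 for Crabp2, 1.25 to 1.51 for Stra6, 0.25 to 0.53 for Aldh1a2, -0.54 to -0.39 for Rbp4, -1.005 to -0.79 for Aldh1a1 and -1.61 to -1.50 for Aldh1a3. Crabp1 ran from -0.73 to 0.80 over 13 alternatives (it did not pass the stricter filter), Cyp26b1 from -0.63 to 0.31 and Rarb from -0.54 to 0.04, and none of these 3 was called. The number of further pathway genes called higher was 6, and 3 to 7 with a library left out. The number called lower was 13, 11 to 14 with a library left out, 15 without a filter on low counts and 16 with library sizes alone. Over all genes 1382 were higher and 1278 lower. With library sizes alone the median log2 fold change of all genes was -0.08, and 36.0% of the calls were in the higher direction, against 52.0% with TMM.

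The alternatives were also run for the called and the most abundant genes of the pathway lists, Rara, Rxra, Rxrb, Rxrg, Cyp26a1, Dhrs3, Cdkn2a and the gate genes, but not for Aldh1a7, Top2b, the marker genes or the genes of like profile. Of those reported here, Lrp1, Rxra and Rarg changed sign, which lay near 0 and were not called. Lrp1 (-0.003 with TMM and edgeR) was 0.00039 with RLE factors and with DESeq2, 0.0053 with limma-voom and 0.0052 with the replicate block. With library sizes alone Rxra was -0.032. With a library left out Lrp1 ran from -0.096 to 0.089, Rxra from -0.025 to 0.099 and Rarg from -0.195 to 0.017. The cause was not tested.

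The correlations of same-numbered deviations were 0.03, 0.08 and -0.005, and those of different numbers ran from -0.069 to 0.039. With 3 libraries per group these values cannot decide whether replicate numbers pair the samples, and the labels do not say. The fit with the replicate block called 3114 genes in place of 2660, and 6 pathway genes higher and 13 lower. It also called the gate genes Itgb1 (adjusted p = 0.0198 by edgeR) and Ptprc (0.0327).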

Other observations

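Among the genes of the pathway, Rarb, Cyp26b1, Dhrs3 and Rarg shared their highest library in each group. Rarb had 4.10 CPM in p16+ replicate 1 and 4.06 in p16- replicate 3, Cyp26b1 had 37.4 in p16+ replicate 1 and 60.6 in p16- replicate 3, Dhrs3 had 75.3 in p16+ replicate 1 and 61.6 in p16- replicate 3, and Rarg had 118 in p16+ replicate 1 and 125 in p16- replicate 3. This was noticed after the values were seen. Stra6 was also highest in these libraries, so that 5 of the 63 genes of the 9 and the further pathway genes tested had this order, as did 10.6% of all genes tested. Of the 16 tested genes listed as responding to retinoic acid, Dhrs3 was the only one with this order, and Cyp26a1 was highest in p16+ replicate 2 and p16- replicate 1.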
